A study of Aix galericulata with 8 samples.

Results

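SMARCA2, TAF3, NCOA7, LEO1 and HMGB2 are symbols of regulators of chromatin and transcription. The authors' tables list gene models under these symbols for the growing sail feather of the male Mandarin duck (Aix galericulata). Whether each gene model encodes the product of its symbol was not tested. The members are all gene models whose symbol equals one of these 5 names, in either the epithelium or the pulp table. There were 9 such gene models among the 784 of the epithelium table and 0 among the 80 of the pulp table. SMARCA2 had 4 gene models, HMGB2 had 2, and TAF3, NCOA7 and LEO1 had 1 each. A gene model is a predicted gene of the duck annotation, and it enters a table only where the authors' comparison of the vanes listed it. The members were therefore chosen from results of these data, and their presence in the epithelium table is part of how they were chosen and not a finding.

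The 8 libraries came from wild-type males with no treatment, whose sail feathers had been plucked and were regrowing in the breeding season. The labels give early growth as the stage of all 8. In the epithelium, the epidermal layer that forms the barbs, 2 libraries came from the medial brown vane and 2 from the lateral blue vane. The mesenchymal core of the follicle, or pulp, was sampled in the same way. The labels number the libraries of a group as replicates, which the study calls biological. According to the methods, the feathers came from a pair of males, so some libraries of different vanes or tissues must share a bird. The bird behind each library was not stated, so which libraries share a bird is unknown. The methods also mention plucking of the flight feather beside the sail feather, which the labels do not name, and whether the averages include it is not settled. Age was not given. The tables have 0 columns that belong to a single library, so neither depth nor replicate spread is known, and the vanes could not be compared here. The fold changes, P and FDR that the authors calculated for that comparison were not used, and no direction between the vanes is given for any member. What the tables do give for each gene model is the authors' average level, logCPM, which is log2 of the average CPM over libraries. CPM is the read count scaled to library size, and the methods name TMM as the normalization. A read share below is this scaled value and not an exact fraction of the reads.

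DNA in the nucleus is wrapped around histones, and a gene can be read only where that packing is loosened and the transcription machinery is brought to its start. The products that these symbols stand for have different roles in this process, with no single order among them. SMARCA2, also known as BRM, is an ATPase of the SWI/SNF complex, which slides and ejects nucleosomes. HMGB2 is a high mobility group protein that bends DNA and so helps other factors to bind it. TAF3 is a subunit of TFIID, the complex that recognises promoters, and reads a methylated lysine of histone H3 there. NCOA7 is known from human cells as a coactivator that associates with the estrogen receptor and other nuclear receptors. LEO1 is a subunit of the PAF1 complex, which travels with RNA polymerase II during elongation. In mouse skin, SWI/SNF ATPases are known for their part in the differentiation of keratinocytes.

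Under the symbol SMARCA2, that of the nucleosome remodeller, the authors' average logCPM in the epithelium was 6.79 for Mandarin_01269500, 6.37 for Mandarin_00108400, 5.83 for Mandarin_01038100 and 4.53 for Mandarin_00961400. On the linear scale these were averages of 111, 82.7, 56.8 and 23.0 CPM. The 4 gene models thus differed by 4.81 times from the highest to the lowest in their share of the reads, and 3 of them lay above the median of the table. Added up, the 4 listed SMARCA2 models came to 273 CPM, of which the highest gene model held 40.6%. Whether all 4 encode SMARCA2 was not tested, so the sum is over a symbol and not over a known gene. The files give no length for a gene model, and a longer model collects more reads from the same number of transcripts. A difference between gene models is therefore one of read share and not of transcript number, and no gene model has an error because the authors' average carries none.

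Under the symbol HMGB2, that of the DNA-bending protein, the authors' average logCPM was 6.49 for Mandarin_01276700 and 4.15 for Mandarin_00837100. Whether both encode HMGB2 was not tested. These were averages of 90.0 and 17.8 CPM, a ratio of 5.07, and Mandarin_01276700 held 83.5% of the CPM summed over both listed models. The pair spans nearly the whole range of the members, since Mandarin_00837100 had the lowest read share of all 9 and Mandarin_01276700 was exceeded by a single one, Mandarin_01269500 of SMARCA2.

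The remaining 3 symbols had a single gene model each, all close to the middle of the table. TAF3, the symbol of the promoter-recognition subunit (Mandarin_00379200), had an authors' average logCPM of 5.11, or 34.6 CPM. NCOA7, the symbol of the nuclear receptor coactivator (Mandarin_00169900), had 4.67, or 25.5 CPM. LEO1 (Mandarin_00936400) had 4.37, or 20.7 CPM. The table gives the symbol LEO1 alone, with no description of the product. The study's text reads this symbol as the leopard connexin of zebrafish, whereas in gene nomenclature it stands for the PAF1 complex subunit. Which of these products Mandarin_00936400 encodes was not tested.

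The members had read shares on both sides of the median of the epithelium table. Their median logCPM was 5.11, against 4.84 for the other 775 gene models, and it was 4.67, below that of the table, without the 4 models of SMARCA2. Of the 9, 5 lay above the median of the whole table and 4 below it. The lower and upper quartiles of the table were 3.50 and 5.86, or 11.3 and 57.9 CPM. Between them lay 6 of the members, while 3 lay above the upper quartile and 0 below the lower one. The logCPM of the members ran from 4.15 to 6.79, a ratio of 6.24 in CPM, within a table that ran from -0.42 to 12.29. The 3 above the upper quartile were Mandarin_01269500 and Mandarin_00108400 of SMARCA2 and Mandarin_01276700 of HMGB2, with 89.9%, 84.3% and 87.0% of the table's gene models below them. At the other end, 35.1% of the table lay below Mandarin_00837100 of HMGB2. These are descriptions of the gene models that the authors listed, with no test, and gene models outside the table have no value here.

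**Figure D1:**
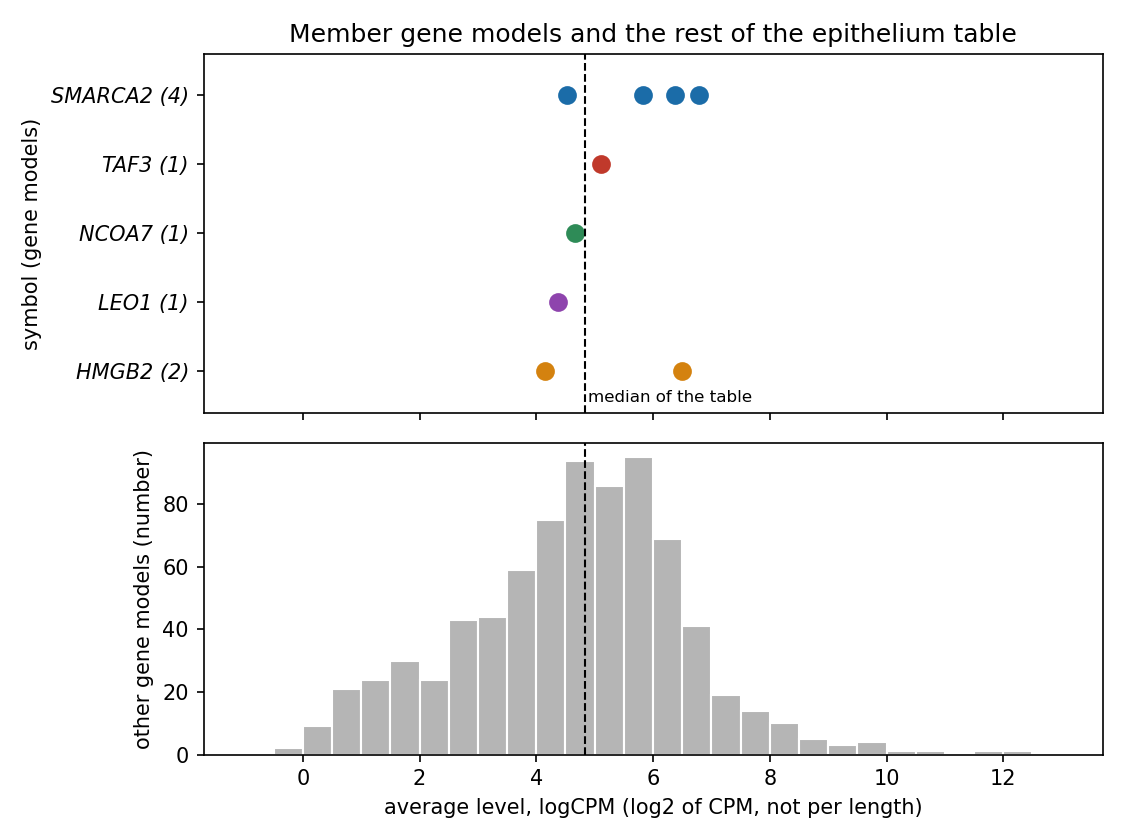
The upper panel plots the authors' average level (logCPM, log2 of CPM, not per length) of the 9 member gene models in the epithelium, 1 row per symbol and 1 point per gene model; the lower panel is a histogram of the other 775 gene models of the table on the same axis. The dashed line is the median of all 784 gene models, 4.84, with 5 members to its right and 4 to its left.

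Several gene models under a single symbol were uncommon in the epithelium table. It gives symbols to 570 of its 784 gene models and holds 499 different ones, of which 453 occur once and 46, or 9.22%, more than once. SMARCA2 is among the 6 symbols with 4 or more gene models. The others are HMCN1, a matrix protein with 6, DLG1, a scaffold of cell junctions with 5, MACF1, a linker of the cytoskeleton with 5, EPB41L3, a membrane skeleton protein with 4, and DDX41, a helicase with 4. Between the highest and the lowest gene model of SMARCA2 the logCPM differed by 2.27. The difference was wider for 3 of the other 5 symbols, at 4.93 for HMCN1, 3.22 for DLG1 and 2.43 for EPB41L3, and narrower for DDX41 at 2.03 and MACF1 at 1.88. For HMGB2 it was 2.34, against a median of 1.14 over the other 30 symbols with 2 gene models, 6 of which had a wider difference.

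**Figure D2:**
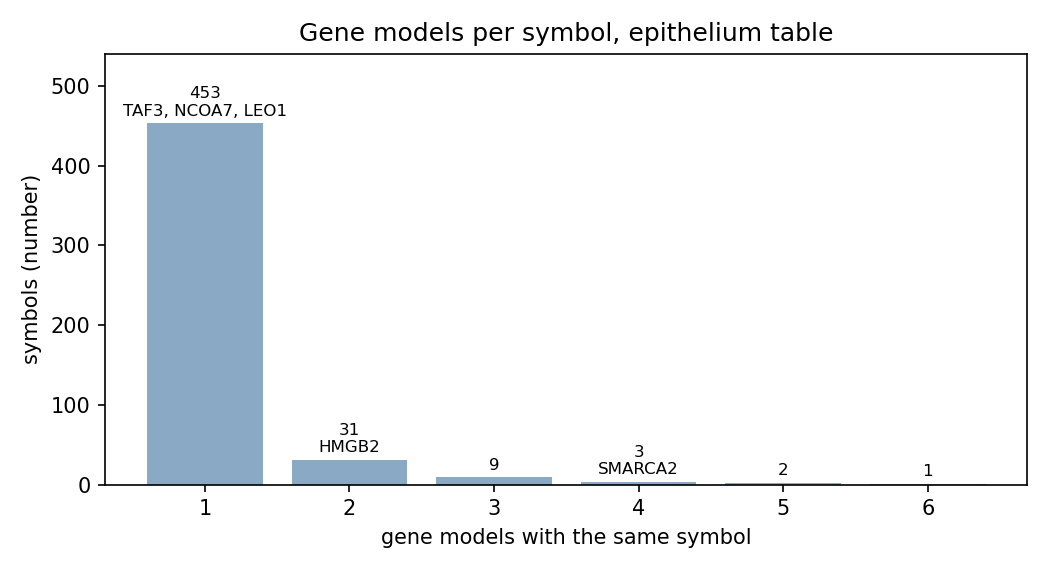
Bars give the number of symbols in the epithelium table (vertical axis) that have the number of gene models on the horizontal axis, with the count and any member symbols written above each bar. TAF3, NCOA7 and LEO1 are among the 453 symbols with 1 gene model, HMGB2 among the 31 with 2 and SMARCA2 among the 3 with 4.

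The listed gene models of SMARCA2 and those of HMGB2 did not carry neighbouring identifiers. Identifiers of the annotation advance in steps of 100. The closest pair of listed SMARCA2 models was 767 steps apart, while the listed HMGB2 models were 4396 steps apart. Gene models that the authors did not list could not enter these gaps. Most other symbols with 4 or more gene models also had wide gaps, though smaller than that of SMARCA2. The closest listed pair was 234 steps apart for HMCN1, 229 for DLG1, 222 for DDX41 and 134 for EPB41L3. For MACF1 alone it was 2 steps apart. Widely spaced identifiers were thus not particular to SMARCA2 and HMGB2. No annotation was used here that tells whether the models of SMARCA2 or HMGB2 are parts of a single gene, copies, or related genes that received the same symbol. The sequences of the models were not compared. How the authors' counting was set to treat reads that match several gene models is not given in the sources used here. The level of each SMARCA2 and HMGB2 model is therefore uncertain.

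Of the 9 members, 2 had a listed gene model 1 step away, or 22.2%, against 130 of all 784, or 16.6%. The order here is that of identifiers, and whether it follows position in the genome was not tested. By identifier, Mandarin_01276700 of HMGB2 lies between MFSD12, a transporter of the melanosome with an authors' average logCPM of 9.53, and CASK, a scaffold kinase with 3.68. TSHR, the receptor of thyroid-stimulating hormone with 5.14, lies 1 step beyond CASK. Mandarin_01038100 of SMARCA2 lies next to HPGDS, a prostaglandin D synthase. HPGDS had an authors' average logCPM of 9.82 in the epithelium table and 5.87 in the pulp table, and is 1 of the 5 gene models listed in both. OPN4-1, with 1.68, lies 2 steps from Mandarin_01038100. Within 10 steps, MYH10 lies 6 steps from Mandarin_00837100 of HMGB2, and SFSWAP 8 steps from Mandarin_00961400 of SMARCA2. UPF2 lies 8 steps from the TAF3 model, and FABP7, listed for the pulp, 8 steps from the NCOA7 model. The other SMARCA2 and HMGB2 models and those of TAF3, NCOA7 and LEO1 had no listed epithelial gene model 1 step away.

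Symbols related to the members were looked up in 6 lists of complexes and families, and a shared list need not mean a shared complex. Beside the 5 members, which were chosen for being in the table, the lists hold 142 symbols, of which 6 had a gene model in the epithelium table, with 8 gene models in all, and 0 in the pulp table. The share of all measured gene models that the authors listed is not in the tables, so these counts cannot be read as high or low. SMARCA2 was the single symbol listed of 28 for the SWI/SNF complex, and TAF3 the single one of 19 for TFIID. Among 29 other ATP-dependent remodellers only BPTF, the large subunit of the NURF complex, was listed, with 3 gene models at an authors' average logCPM of 5.85, 5.43 and 4.55. Like SMARCA2, BPTF therefore has several listed gene models, whose closest identifiers were 3643 steps apart.

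Beside LEO1, 2 more of the 34 symbols in the list for the PAF1 complex and transcription elongation were in the epithelium table. CTR9, another subunit of the PAF1 complex, had an authors' average logCPM of 5.38, or 41.6 CPM. IWS1, which works with the elongation factor SUPT6H, had 5.96, or 62.1 CPM. The symbols PAF1, CDC73 and RTF1, of further PAF1 complex subunits, had no gene model in either table.

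Of 22 nuclear receptor coactivators and corepressors, 3 were listed. Beside NCOA7 these were NCOA6, a coactivator with an authors' average logCPM of 5.95, and NRIP1, a corepressor of hormone receptors with 4.29. Of 15 high mobility group proteins, HMGA1, which binds AT-rich DNA, was listed beside HMGB2, at 5.47. The 8 gene models of the 6 listed symbols that are not members had a median logCPM of 5.45 and ranged from 4.29 to 5.96. Of these 6 symbols, BPTF alone had more than 1 gene model. The lists were drawn up with results of these data known, so these counts are a description and not a test. A symbol that is not in a table has no value here, which says nothing of whether the gene is expressed.

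**Figure D3:**
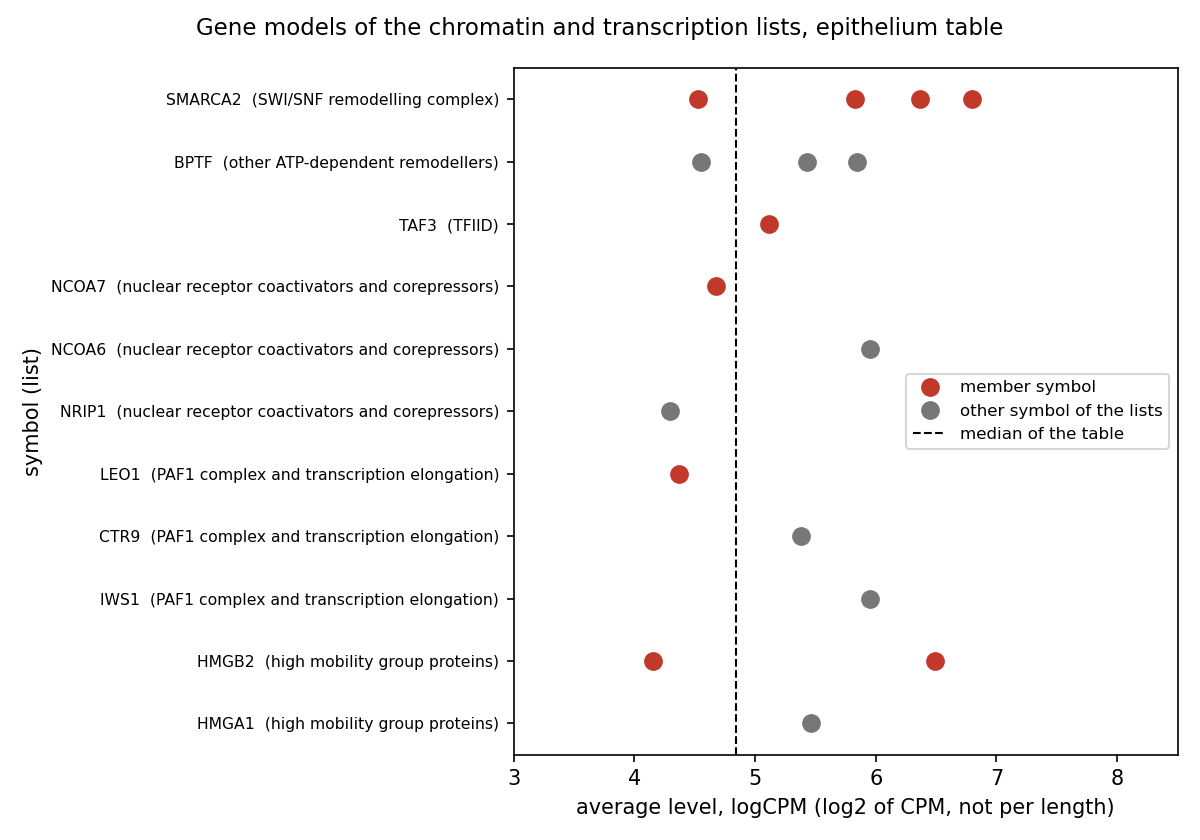
Points give the authors' average level (logCPM, log2 of CPM, not per length) of the 17 gene models in the epithelium table that belong to 6 lists of chromatin and transcription genes, 1 row per symbol with its list in brackets. Red points are SMARCA2, TAF3, NCOA7, LEO1 and HMGB2, grey points the other 6 symbols, and the dashed line is the median of the table, 4.84.

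In the pulp, 0 gene models carried a member symbol among the 57 with a symbol. No level of SMARCA2, TAF3, NCOA7, LEO1 or HMGB2 is therefore available here for that tissue. Only gene models that the authors' comparison of the vanes listed have a value, so this absence says nothing of their expression in the pulp. For the 5 gene models listed in both tables, the authors' averages differed by 1.42 to 3.95 on the log2 scale, so each table has its own average. The levels of the members given above therefore describe the epithelium table alone.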

How the data were processed

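RNA from 8 libraries, 2 in each of 4 groups named by the labels, was sequenced by the authors. Per the labels and the study's methods, reads were aligned with STAR 2.4.1d, counted with HTSeq 0.6.0, normalized by TMM and compared with edgeR. The study used a Mandarin duck reference genome, whose build name and annotation release are not given in the sources used here. The deposited tables, 1 per tissue, hold an identifier, a symbol and log2 values of the average CPM (logCPM) that the authors computed over libraries, which are not scaled to gene length. They also hold the authors' own comparison of the vanes (logFC, PValue and FDR), and the study describes the listed genes by a p-value cutoff. Those columns were not used. With 0 columns of values per library, depth and replicate spread are unknown, and no test was run.

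Member gene models were found by their symbol as written. CPM was calculated as 2 to the power of logCPM, and gene models were counted per symbol and per list. Identifier neighbours were looked for within 10 steps. Named genes are the members, listed symbols, identifier neighbours and symbols with as many gene models as SMARCA2. A symbol withheld from the lists is not reported here. Members and lists were chosen with earlier results of these data known. Python 3.11.15, pandas 2.3.3, numpy 2.4.6 and matplotlib 3.10.9 were used. Alternatives were sums per symbol, leaving out each symbol, gene models with a symbol only, symbols matched in any case or with a suffix, and symbols counted once.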

Additional observations from a re-analysis of the deposited data

How the results depend on the processing

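The median logCPM of the members was 5.11, and stayed at 5.11 when the gene models of a symbol were summed or HMGB2 was left out. In each of these settings the median is the level of the single TAF3 model, so this agreement is not evidence of robustness. The median was 4.67 without SMARCA2, 5.25 without TAF3 and 5.47 without either NCOA7 or LEO1. Without SMARCA2 it thus fell below the median of the table, 4.84. The share of the table below the members' median was 56.9% over all gene models and 56.0% over those with a symbol. The rule found 9 gene models, also when symbols in any case or with a suffix were allowed. The lists had 17 gene models in the tables, or 11 when each symbol was counted once. No paired analysis was possible because the tables hold no value per library, and for the same reason no replicate could be left out. How far the depth of the libraries limits the low levels is unknown.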
